A study of Homo sapiens with 16 samples.

Results

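The line by prednisolone interaction asks of every gene whether prednisolone changed it by the same amount in both lines of a leukaemia cell experiment. It is the change with prednisolone in cells labelled CASP1 minus the change in control cells, on log2 signals. It used all 16 arrays of the series and was tested for 18132 genes, of which 161 (0.888%) were called at an adjusted p under 0.05. Of these, 95 genes (0.524% of all tested) lay above 0 and 66 (0.364%) below 0.

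The cells were Nalm6, an established human B-cell precursor acute lymphoblastic leukaemia line, and each array held total RNA on the Affymetrix PrimeView design. The 4 groups, of 4 arrays each, were untreated control cells, control cells given prednisolone for 24 hours, untreated cells labelled as carrying active, overexpressed CASP1, and those cells given prednisolone for 24 hours. All cells grew in RPMI1640 with heat-inactivated serum and glutamine. The sample labels spell the drug as a form of prednisone and the treatment protocol as prednisolone. The dose, the construct and its promoter, what the control cells carried, and whether each line was a clone or a pool are not stated in the sources used here. Whether replicates were separate cultures is not stated either, so p-values cover only the spread among these samples, which may be technical.

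Prednisolone is a synthetic glucocorticoid. It binds the glucocorticoid receptor, encoded by NR3C1, which then moves to the nucleus, binds DNA and turns genes such as TSC22D3 and FKBP5 on and others off. In B-cell precursors it halts the cell cycle and can lead to apoptosis, and it is a core drug in the treatment of this leukaemia. CASP1 is the inflammatory caspase that matures interleukin 1 beta, and the series title asks whether it causes resistance by cleaving the receptor. A line by drug interaction can come about in different ways. The lines may start alike and end apart, start apart and end alike, or stay apart in both states by different amounts, and a gene near the bottom of the array's range may have no room to fall. Each called gene was therefore placed by where the line difference was called.

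The labels must be read with 2 facts in mind. CASP1 signal, taken here from 1 of its 9 probe sets, was lower on the arrays labelled CASP1. Whether that probe set reads RNA from the introduced construct is not known here, so the signal may leave such RNA out. In untreated control cells it was 7.69, 7.95, 7.59 and 7.76 on the log2 scale for replicates 1 to 4, against 6.05, 5.45, 5.62 and 5.64 in the untreated other line. With prednisolone the values were 6.90, 7.08, 6.97 and 6.86 against 5.38, 4.79, 4.87 and 5.05. The groups did not overlap in either state, and this signal does not match the label, which holds wherever a direction between the lines is given here. CASP1 itself had an interaction of 0.12 (adjusted p = 0.907). The other fact is that replicate 1 of every group stood apart from replicates 2 to 4. The deviations of the number 1 arrays from their group means correlated with each other at 0.191 to 0.507 over 6 pairs, while 72 pairs of arrays with different numbers had a median of -0.0456. Leaving out the 4 arrays of replicate 1 raised the calls from 161 to 727 (4.01%), with 493 above 0 (2.72%) and 234 below 0 (1.29%). Of the 161 genes, 158 were called in that analysis too, and all 161 had the same sign. Both analyses hold the arrays of replicates 2 to 4, so this agreement is not independent. The calls lost were CLDND2, LIG1 and NUPR2.

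NR3C1 signal was 9.93, 10.24, 10.27 and 10.29 in untreated control cells and 11.49, 11.39, 11.41 and 11.41 with prednisolone. In the other line it was 9.96, 10.18, 10.23 and 10.24 untreated and 11.19, 10.99, 10.88 and 10.95 with prednisolone. The untreated lines overlapped and the treated lines did not. Its interaction was -0.39 with adjusted p = 0.268 over all arrays, and -0.41 with adjusted p = 0.0192 without replicate 1. The 13 measured B-precursor markers were above the floor of the arrays in all 4 groups and limma called 0 of them for the interaction, with 2 at an unadjusted p under 0.05. Without replicate 1 it called 2 below 0 (1.29% of all genes were), and the median interaction went from -0.15 to 0.04. Here the floor is the 25th percentile of all signals, 3.26 on the log2 scale. Summed on the linear scale, these markers lay at 41575 to 48986 in untreated and 39743 to 40664 in treated control cells. In cells labelled CASP1 the sums were 44545 to 45804 untreated and 28063 to 37723 treated. Without replicate 1 they were 47110 to 48986 and 39909 to 40664 in control cells, and 45555 to 45804 and 36762 to 37723 in the other line. The sum was thus lower with prednisolone in both lines. Treated cells labelled CASP1 had the lowest sums, with no overlap with any other group, and their lowest sum was that of replicate 1. The part of this lower sum in the values of treated cells labelled CASP1 was not tested. In bulk RNA, fewer cells of a type and less RNA per cell cannot be told apart. Marker lists of T, NK, myeloid, erythroid, fibroblast and epithelial cells had median signals of 3.34 to 4.81. Only LYZ among them was called, below 0 (0.364% of all genes were).

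Most of the called genes had mean responses of the same sign in both lines, with the smaller response in cells labelled CASP1. That was so for 112 of the 161 genes (69.6%), of which 55 had a smaller change upwards and 57 a smaller change downwards. Another 12 (7.45%) had a larger response in cells labelled CASP1, 11 of them a larger rise and 1, LYZ, a larger fall. The remaining 37 (23.0%) had responses of opposite sign. Over all 18132 genes, called or not, the shares were 36.4% smaller, 26.7% larger and 37.0% opposite. Prednisolone itself was called for 14.2% of all genes in control cells and for 6.34% in cells labelled CASP1. Among the 112 smaller responses, 47 were themselves called in cells labelled CASP1 and 65 were not, and a response that misses the threshold is not shown to be absent. The genes with opposite signs were mostly called in control cells alone (26 of 37), and only HESX1 and UTRN were called in both. HESX1, a homeobox repressor, changed by -0.44 in control cells (adjusted p = 0.0272) but by 0.45 in the other line (adjusted p = 0.0440). UTRN, which encodes the dystrophin relative utrophin, changed by 0.31 (adjusted p = 0.0380) and by -0.42 (adjusted p = 0.0110). The size of the interaction was 0.44 to 3.98 on the log2 scale with a median of 0.82, and it was at least 2-fold for 44 genes. In all 161 genes each of the 4 sets of same-numbered arrays gave the same sign, and 86 were called in all 16 analyses that left out 1 array. The genes were chosen on these same arrays, so agreement in sign largely follows from the choice and is not independent support.

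The interaction equals the line difference in treated cells minus that in untreated cells, so each gene can be read from these values. Of the 161 genes, 78 had a line difference called in treated cells only, 48 in untreated cells only, 24 in both with the same sign and 11 in both with opposite signs. By size alone, the treated difference was the larger for 98 genes and the untreated one for 63. For comparison, a line difference was called for 14.1% of all genes in untreated cells and for 16.4% in treated cells. A class name states calls, and a line difference that was not called is not shown to be 0.

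**Figure D1:**
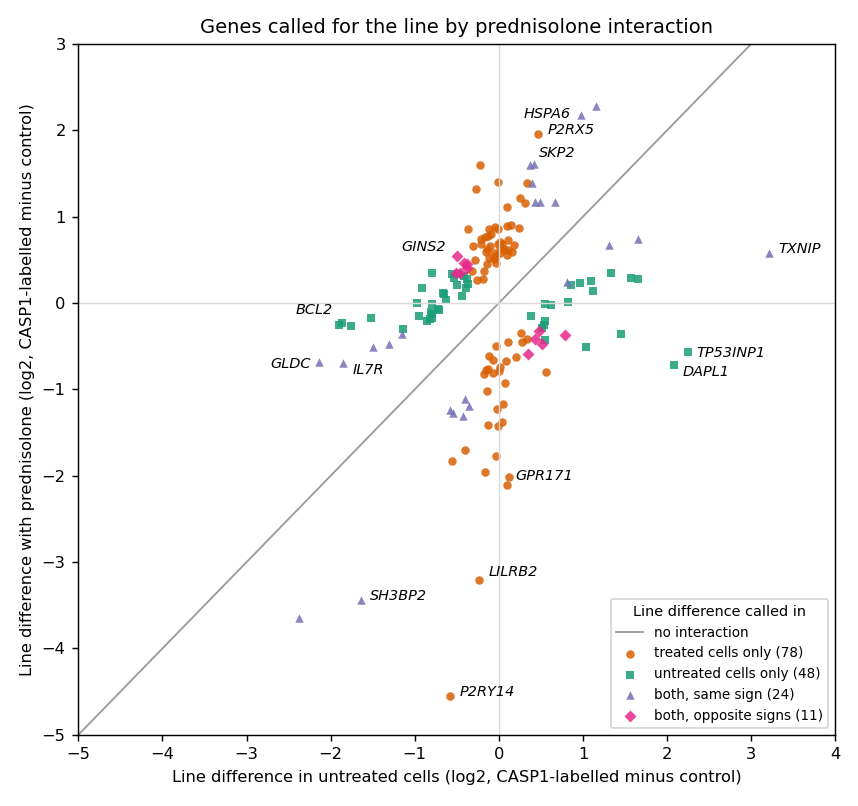
Line difference (cells labelled CASP1 minus control, log2, means of 4 arrays per group) in untreated cells on the horizontal axis and with prednisolone on the vertical axis, 1 point for each of the 161 called genes, coloured by where the line difference was called. The diagonal marks equal differences, the 78 genes called in treated cells only have untreated line differences of -0.58 to 0.57, and the 48 called in untreated cells only have treated line differences of -0.72 to 0.35.

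In the largest class, 78 genes, the lines were called different only after prednisolone. Here 53 genes responded less in cells labelled CASP1, 7 responded more and 18 had opposite signs. LILRB2, an inhibitory receptor of leukocytes that binds class I molecules, read 3.04, 2.75, 2.46 and 2.70 in untreated control cells and 6.77, 6.91, 7.04 and 7.02 with prednisolone. In the other line it read 2.57, 2.38, 2.45 and 2.63 untreated and 3.65, 3.44, 4.04 and 3.77 with prednisolone. The untreated lines overlapped at the floor, and every treated control array was above every treated array of the other line. It rose by 4.20 in control cells but by 1.22 in the other line, an interaction of -2.98 (SE 0.18, adjusted p = 8.61e-08). Both untreated means, 2.74 and 2.51, were under the floor, so the sizes of these rises and of the interaction depend on signal not above background. With 64 added to each linear signal before the log the interaction was -1.25. The UDP-sugar receptor P2RY14 read 3.34, 3.44, 3.76 and 3.30 in untreated control cells and 10.81, 11.12, 10.97 and 10.90 with prednisolone. In cells labelled CASP1 it read 3.40, 2.71, 2.71 and 2.70 untreated and 4.19, 7.61, 6.71 and 7.06 with prednisolone. Replicate 1 was the low array among the treated ones, and the treated lines did not overlap with or without it. The interaction was -3.98 (SE 0.66, adjusted p = 0.00560) over all arrays and -3.07 (adjusted p = 3.21e-05) without replicate 1. The untreated mean of cells labelled CASP1, 2.88, was under the floor, and with 64 added the interaction was -3.57.

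Other smaller rises of this class were in CSGALNACT1, an enzyme of chondroitin sulfate synthesis, and in DUSP10, a phosphatase of p38 and JNK kinases. CSGALNACT1 rose by 3.43 in control cells against 1.70 in the other line, with untreated means 0.04 apart (interaction -1.74, SE 0.33, adjusted p = 0.0131). DUSP10 read 5.94, 5.66, 5.87 and 5.74 in untreated control cells, 7.11, 6.99, 6.89 and 6.75 in treated control cells, 5.96, 5.87, 5.93 and 5.74 in the untreated other line and 6.12, 6.08, 5.82 and 6.03 in that line with prednisolone. Only the treated control arrays stood out, and the other 3 groups overlapped. Its interaction was -0.99 (SE 0.14, adjusted p = 0.00200), and 3 of its 4 probe sets were called with that sign. KLF2, a factor of lymphocyte quiescence, rose by 4.41 and by 3.04 (interaction -1.36, adjusted p = 0.0376), and its treated arrays overlapped between the lines. MXRA7 and CPQ, a carboxypeptidase, had interactions of -1.42 and -1.41 with untreated means less than 0.05 apart.

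A few genes rose in cells labelled CASP1 more than in control cells, or in these cells alone, with no line difference called in untreated cells. PIEZO1, a mechanically gated cation channel, read 7.48, 7.88, 8.15 and 8.10 in untreated control cells and 8.61, 9.21, 9.30 and 9.24 with prednisolone. The other line read 7.63, 7.92, 8.05 and 7.97 untreated and 10.28, 10.22, 10.84 and 10.63 with prednisolone. The untreated lines overlapped and the treated lines did not. The rise was 2.28-fold in control cells against 6.06-fold in the other line (interaction 1.41, SE 0.25, adjusted p = 0.00906). RNF166, a ubiquitin ligase, rose by 0.58 and by 2.17 (interaction 1.59, adjusted p = 0.00150). The ATP-gated channel P2RX5 rose by 1.91 and by 3.40 (interaction 1.49, adjusted p = 0.0143). Its untreated line difference was 0.47 and was not called (adjusted p = 0.145). PFKP, a phosphofructokinase of glycolysis, was at -0.07 in control cells against 0.86 in the other line (interaction 0.93, adjusted p = 0.00315). Its treated control arrays read 9.50 to 9.54 and the treated arrays of the other line 10.12 to 10.49.

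The class also held cell cycle genes that fell less. WDHD1, a replisome factor, fell by 1.37 in control cells but by 0.40 in the other line (interaction 0.97, SE 0.15, adjusted p = 0.00413). CDC25A, a phosphatase that activates cyclin-dependent kinases, fell by 1.55 and by 0.76 (0.78, adjusted p = 0.0109), and SPC25, a kinetochore subunit, by 1.11 and by 0.48 (0.62, adjusted p = 0.0118). FDPS, an enzyme of the mevalonate pathway, fell by 0.83 in control cells and was at -0.24 in cells labelled CASP1 (0.59, adjusted p = 0.0150). DDIT4L, an inhibitor of mTOR signalling, was at -1.09 in control cells and at 0.13 in the other line (1.22, adjusted p = 0.0269).

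In a further 48 genes the lines were called different only before treatment, so that prednisolone brought levels that had been apart closer. TP53INP1, a p53-induced regulator of autophagy and cell death, read 6.89, 6.93, 7.01 and 7.16 in untreated control cells and 9.83, 8.97, 9.09 and 9.09 in those labelled CASP1. With prednisolone it read 12.18, 12.11, 12.07 and 12.04 in control cells and 10.84, 11.61, 11.86 and 11.80 in the other line. The lines were apart without overlap in both states, with opposite order, though only the untreated difference was called. Of the interaction of -2.81 (SE 0.27, adjusted p = 4.89e-05), the treated difference made up 20.2% and the untreated one the rest. Only 1 of its 2 probe sets had this sign. DAPL1 was alike in pattern, at an untreated difference of 2.08, a treated one of -0.72 and an interaction of -2.80 (adjusted p = 0.00565), or -2.12 without replicate 1. NFKBIZ, an atypical inhibitor of NF-kappaB, rose by 2.55 and by 1.27, from untreated levels 1.57 apart to treated levels 0.29 apart (interaction -1.28, adjusted p = 0.00315). CHRNA1, a nicotinic receptor subunit, had -1.81 (adjusted p = 0.0357).

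BCL2, which protects cells from apoptosis, was the counterpart among the falls. It read 8.99, 8.86, 8.74 and 8.77 in untreated control cells and 6.51, 6.39, 6.28 and 6.35 with prednisolone. Cells labelled CASP1 read 7.53, 6.75, 6.70 and 6.92 untreated and 6.99, 5.86, 5.96 and 5.79 with prednisolone. The untreated lines were far apart and the treated lines overlapped, through replicate 1, which read highest in both groups labelled CASP1. The interaction was 1.63 (SE 0.30, adjusted p = 0.0116) and 1.53 without replicate 1, all 6 probe sets had its sign and 3 were called. CHEK1, the checkpoint kinase of replication stress, fell by 1.03 in control cells, from untreated levels 0.67 above the other line, and was at -0.25 in cells labelled CASP1 (0.78, adjusted p = 0.00519). Of its 6 probe sets 5 were called with this sign. TERT, the catalytic subunit of telomerase, fell by 0.76 in control cells, to the level that cells labelled CASP1 had throughout (0.78, adjusted p = 0.00528). Its 4 treated control arrays read 5.85 to 5.94, and the 8 arrays labelled CASP1 read 5.66 to 6.07. KCNMB3, a potassium channel subunit, had the same form (1.34, adjusted p = 0.00150).

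Some genes of this class rose from a lower start in cells labelled CASP1. TSC22D3, the gene of the glucocorticoid-induced leucine zipper and a direct receptor target, read 7.91, 7.85, 7.70 and 7.75 in untreated control cells against 6.76, 6.91, 6.80 and 7.08 in the other line. With prednisolone it read 12.04, 12.71, 12.59 and 12.67 against 12.86, 12.48, 12.72 and 12.63, and these overlapped. Its larger rise therefore lay in the untreated level, with 15.8% of the interaction of 1.09 in the treated difference. The treated values are in the top 1% of all signals, above 11.71, where arrays can saturate. TP53INP1 and TXNIP were the other called genes with a group mean there. IRF8, a transcription factor of B and myeloid cells, rose by 0.74 and by 1.88 from untreated levels 0.79 lower (1.14, adjusted p = 0.00713). BCL6, a repressor of the germinal centre programme, was at -0.59 in control cells against 0.90 in the other line (1.49, adjusted p = 0.0498), and was called in 2 of the 16 analyses without 1 array.

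The 24 genes with line differences of the same sign in both states kept their order while the gap changed. TXNIP, an inhibitor of glucose uptake, read 9.04, 8.63, 8.98 and 8.97 in untreated control cells and 12.21, 12.10, 12.11 and 12.08 in those labelled CASP1. With prednisolone it read 12.32, 12.90, 12.88 and 12.82 against 13.19, 13.30, 13.39 and 13.37. Cells labelled CASP1 were higher on every array in both states, and the gap shrank from 3.22 to 0.58 (interaction -2.63, SE 0.17, adjusted p = 1.05e-07). All 5 probe sets were called with this sign. IL7R, the receptor for interleukin 7, read 10.05, 9.94, 9.86 and 10.02 in untreated control cells and 8.28, 8.02, 8.03 and 8.15 in those labelled CASP1. With prednisolone it read 10.37, 10.35, 10.48 and 10.33 against 9.59, 9.81, 9.62 and 9.71. Here cells labelled CASP1 were lower throughout, rose more, and ended 0.70 lower in place of 1.85 (interaction 1.15, SE 0.12, adjusted p = 8.33e-05). GLDC, of the glycine cleavage system, also closed part of a gap, with a line difference that went from -2.13 to -0.69 (1.45, adjusted p = 0.0151).

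In other genes of this class the gap grew. SH3BP2, a signalling adaptor, rose by 3.34 in control cells but by 1.54 in the other line, and its line difference went from -1.64 to -3.44 (interaction -1.80, adjusted p = 0.00116, 4 of 4 probe sets called). SKP2, which marks cell cycle inhibitors such as p27 for degradation, read 7.95, 7.67, 7.67 and 7.78 in untreated control cells and 6.06, 6.25, 5.92 and 5.91 with prednisolone. In the other line it read 7.98, 8.14, 8.25 and 8.19 untreated and 7.83, 7.48, 7.59 and 7.66 with prednisolone. The treated cells labelled CASP1 thus stayed 1.60 above treated control cells (interaction 1.23, SE 0.15, adjusted p = 0.000482). DDB2, a sensor of DNA damage and p53 target, fell by 0.99 in control cells and was at 0.01 in cells labelled CASP1 (0.995, adjusted p = 0.00812). HSPA6, an inducible heat shock protein, was at -0.07 and at 1.12 (1.20, adjusted p = 0.0233).

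The last 11 genes changed the order of the lines. GINS2, a subunit of the replicative helicase complex, read 9.30, 9.32, 9.29 and 9.41 in untreated control cells and 8.71, 8.85, 8.88 and 8.90 in those labelled CASP1. With prednisolone it read 8.04, 7.61, 7.41 and 7.45 against 7.92, 8.31, 8.20 and 8.24. The untreated groups did not overlap, and the treated groups overlapped by replicate 1 of each. The interaction was 1.03 (SE 0.17, adjusted p = 0.00533) over all arrays and 1.23 without replicate 1. RFC5, a subunit of the clamp loader, had line differences of -0.42 and 0.47 with no overlap in either state (interaction 0.89, SE 0.12, adjusted p = 0.00147). RUBCNL, a regulator of autophagosome maturation, read 9.43, 9.68, 9.68 and 9.69 in untreated control cells and 11.23, 10.62, 10.69 and 10.59 with prednisolone. In cells labelled CASP1 it read 10.40, 10.41, 10.39 and 10.42 untreated and 10.38, 10.27, 10.55 and 10.45 with prednisolone. These 8 arrays lay between the untreated and treated control arrays, and the response in cells labelled CASP1 was 0.01 (interaction -1.16, SE 0.17, adjusted p = 0.00315). All 5 RUBCNL probe sets were called with this sign. NCK2, an adaptor of receptor tyrosine kinases, had -0.94, IFI30, a lysosomal thiol reductase, 0.82, and DTX4, a ubiquitin ligase, 0.86.

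**Figure D2:**
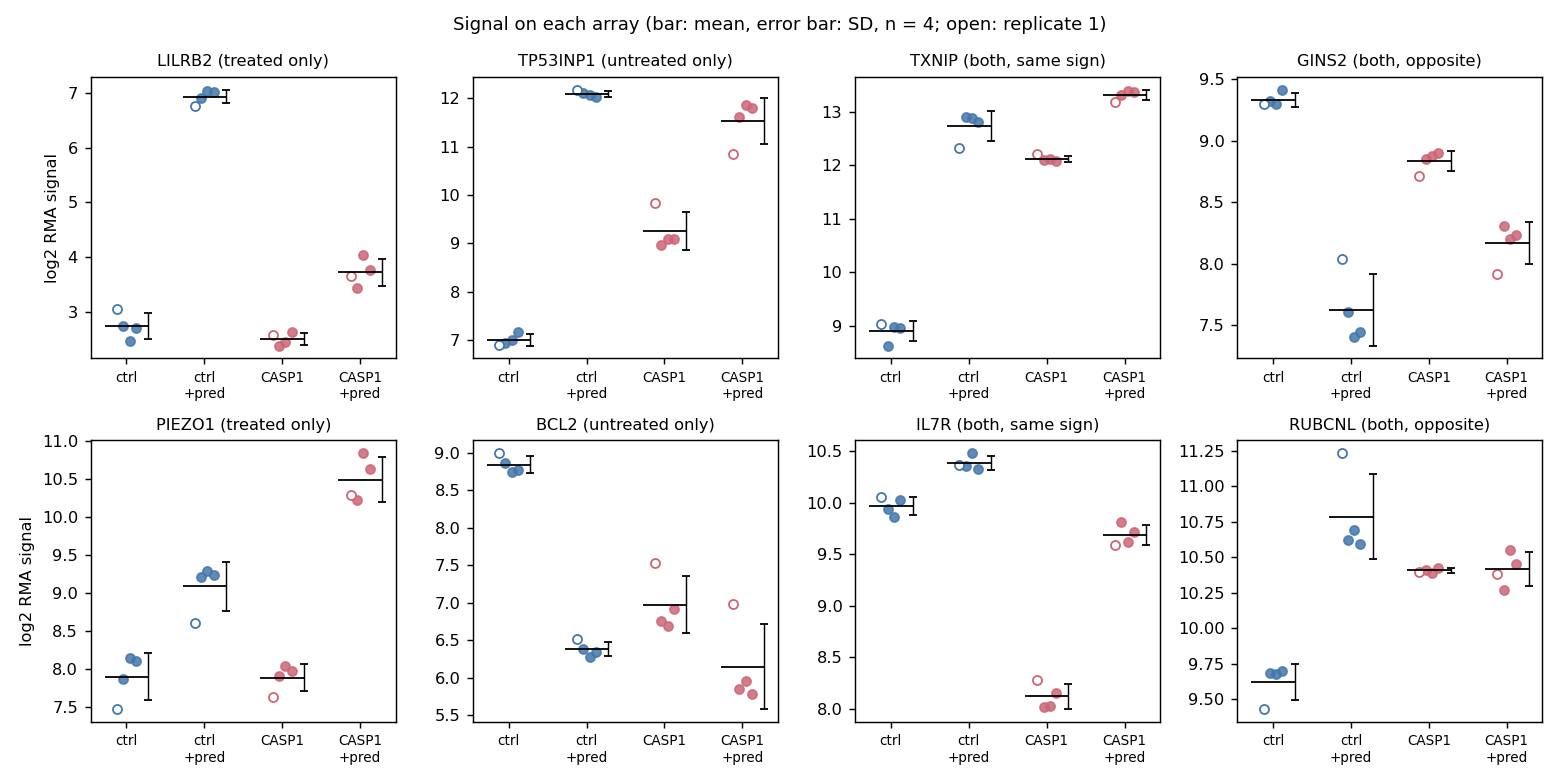
Log2 RMA signal on each of the 16 arrays for 2 genes of each class, with control cells in blue, cells labelled CASP1 in red, replicate 1 as open circles, bars for group means and error bars for the SD (n = 4). LILRB2 and PIEZO1 start level and end apart, TP53INP1 and BCL2 start far apart and end closer, TXNIP and IL7R keep their order, and GINS2 and RUBCNL change it.

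Floor effects touched few of the calls. A group mean at or under the floor occurred in 13 of the 161 genes (8.07%), against 21.8% of all genes tested. They were P2RY14, LILRB2, LILRB1, GPR171, TDRD9, PPP2R2C, BRINP1, FUT7, CAPSL, LYZ, CLIC3, H3-5 and SCML4, 8 of them in the class called in treated cells only. In 5 of the 13, which were GPR171, LILRB1, PPP2R2C, CAPSL and H3-5, both means of the line with the smaller response were at the floor, so that this response could not be sized. In all of these but CAPSL the untreated control mean was under the floor too, and control cells rose from there. Treated control means were 5.24, 4.85, 4.62 and 4.42 for GPR171, LILRB1, PPP2R2C and H3-5, so a rise of that size was within the range of the arrays. GPR171, a G protein-coupled receptor, read 2.83, 2.78, 2.75 and 2.88 in untreated control cells and 4.63, 5.45, 5.42 and 5.47 with prednisolone, while all 8 arrays labelled CASP1 read 2.68 to 3.42. Both means of cells labelled CASP1 were at or under the floor, and the interaction of -2.20 (adjusted p = 0.000206) has that limit. CAPSL is the opposite case. Control cells fell from 4.80, 4.80, 4.04 and 4.89 to 2.70, 2.88, 3.06 and 2.90, and cells labelled CASP1 were at 2.46 to 2.99 before treatment, where no fall could be measured. With 64 added to each linear signal before the log, which flattens differences near background, 12 of the 13 genes were still called and FUT7 was not (adjusted p = 0.355). On that scale GPR171 had an interaction of -0.50. The sign was the same on the linear scale for all 161 genes, and 144 were called with the added 64.

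LYZ, lysozyme, was the only larger fall. It went from a mean of 4.01 to 3.06, at the floor, in control cells and from 5.35 to 3.41 in cells labelled CASP1 (interaction -0.99, adjusted p = 0.0392). LYZ is also a myeloid marker. The linear sum of the 7 measured myeloid markers was 88 to 106 and 78 to 87 in untreated and treated control cells, and 106 to 126 and 82 to 94 in those labelled CASP1, LYZ included. CD14 was at or under the floor in every group. The part of myeloid transcripts in this result was not tested.

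Genes of DNA replication and S phase formed the list with the most calls. The list's 47 measured members duplicate the genome, from origin licensing (ORC, CDT1, MCM) through the helicase (CDC45, GINS) to the clamp loader (RFC), polymerases and chromatin assembly (CHAF1). All 47 had an interaction above 0, with a median of 0.55, and 12 were called (25.5%, against 0.524% of all genes called above 0). The median over all genes was 0.03. In control cells 43 members were called lower with prednisolone (8.43% of all genes were) and 1, POLA2, higher, with a median change of -0.90. In the other line 25 were called lower (3.35% of all genes) and 1 higher, with a median of -0.40. The median line difference went from -0.22 in untreated cells to 0.25 in treated cells. By mean values, called or not, 33 members crossed from below 0 to above 0. Over all 18132 genes the sign differed between the states, in either direction, for 5724. The calls were spread over the classes. ORC1, RFC4, LIG1, DTL and WDHD1 were called different in treated cells only, MCM5, MCM6, CDC45 and CHAF1B in untreated cells only, GINS2 and RFC5 in both with opposite signs, and CDT1 in both with the same sign. By replicate number the list's median was 0.20 for number 1 and 0.53, 0.67 and 0.67 for numbers 2 to 4. Without replicate 1 it was 0.60 and 30 members were called above 0, against 2.72% of all genes.

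**Figure D3:**
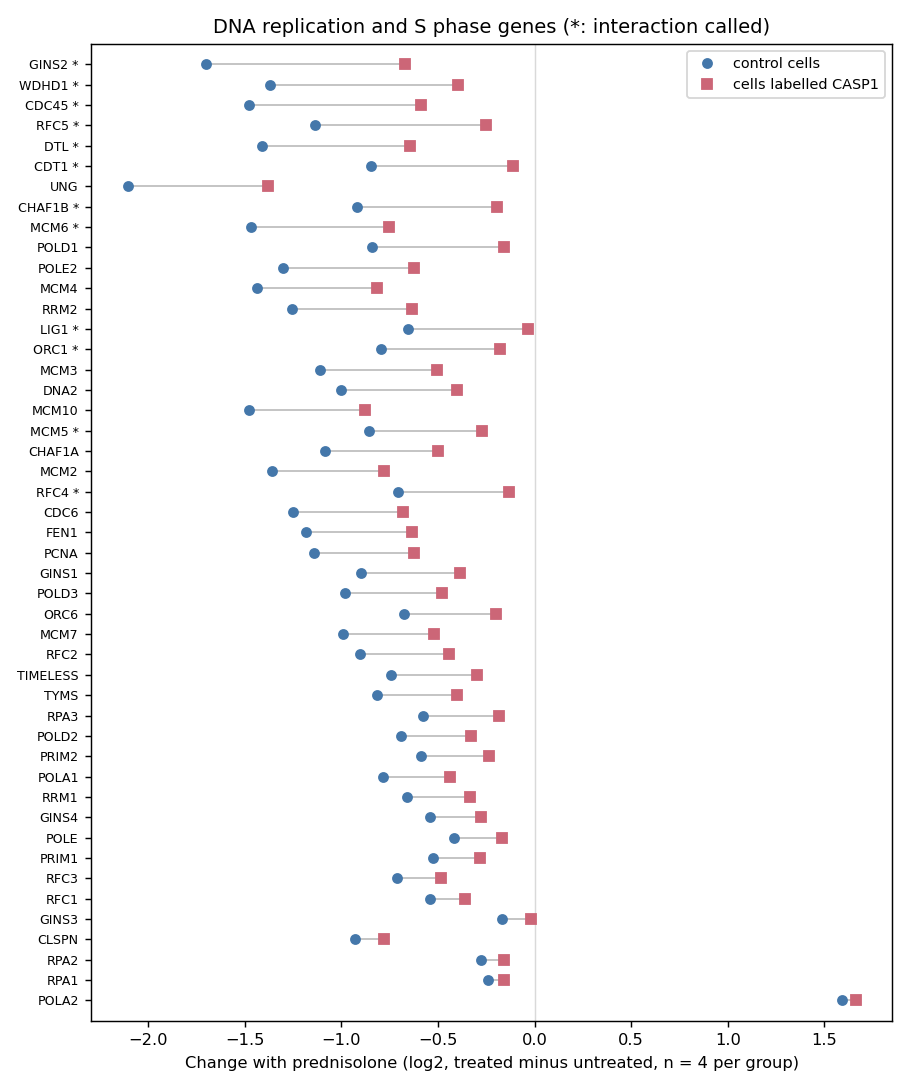
Change with prednisolone (log2, mean of 4 treated minus mean of 4 untreated arrays) of the 47 measured DNA replication and S phase genes, with control cells as circles and cells labelled CASP1 as squares, ordered by the interaction and starred where it was called. The square lies to the right of the circle for all 47 genes, and POLA2 is the only member that rose.

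Many replication genes are controlled by E2F factors, which bind sites such as TTTCCCGC and TTTGGCGC near the start of the gene. These letters were searched on both strands in RefSeq windows (GRCh38.p14) of 300 bases, 250 before to 50 after each start. Of the 40 list members with a window, 17 (42.5%) held at least 1 of them, against 3.78% of 14425 genes tested that had a window. The share was 12.8% of 86 genes called above 0 and 1.75% of 57 called below 0. Among the 11 matching genes called above 0, CDT1, DTL, GINS2, LIG1 and MCM6 are also members of the replication list, so these shares overlap. The receptor's own element in its full form, AGAACA, any 3 bases and TGTTCT, was in 0 of the 14425 windows, which says only that these letters are not there. To show the match in 3 of the classes, the 250 bases before the start are printed for DTL, which marks CDT1 for degradation and was called in treated cells only, for GINS2, which changed order, and for MCM6, a helicase subunit called in untreated cells only. They are written 5′ to 3′ on the strand of the gene, with the matching letters, or their reverse complement, in capitals. A match is a description of the letters and not a bound site.
DTL: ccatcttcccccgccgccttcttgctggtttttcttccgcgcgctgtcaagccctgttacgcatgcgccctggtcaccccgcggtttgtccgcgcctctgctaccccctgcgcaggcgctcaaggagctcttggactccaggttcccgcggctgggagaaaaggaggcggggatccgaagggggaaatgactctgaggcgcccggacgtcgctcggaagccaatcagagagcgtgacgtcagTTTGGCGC
GINS2: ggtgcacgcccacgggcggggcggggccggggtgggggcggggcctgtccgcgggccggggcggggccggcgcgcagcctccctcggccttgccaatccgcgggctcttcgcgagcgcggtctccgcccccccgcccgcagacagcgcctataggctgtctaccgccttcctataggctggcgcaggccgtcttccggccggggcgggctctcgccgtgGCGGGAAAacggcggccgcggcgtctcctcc
MCM6: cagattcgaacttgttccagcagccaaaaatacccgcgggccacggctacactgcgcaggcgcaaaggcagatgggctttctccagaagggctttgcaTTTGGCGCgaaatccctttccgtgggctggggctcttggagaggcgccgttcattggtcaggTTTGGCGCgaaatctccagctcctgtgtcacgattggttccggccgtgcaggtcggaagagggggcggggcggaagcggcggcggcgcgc
The windows lie at chr1:212035498-212035747 on the plus strand for DTL, chr16:85688955-85689204 on the minus strand for GINS2 and chr2:135876444-135876693 on the minus strand for MCM6. The first matching base is 8 bases before the start in DTL, at -8, at -31 in GINS2, and at -152 and -90 in MCM6, which held 2 matches. DTL fell by 1.41 in control cells but by 0.64 in the other line (interaction 0.77, adjusted p = 0.00927). Its untreated arrays read 9.95, 10.18, 10.13 and 10.01 in control cells against 9.91, 9.93, 9.91 and 9.95, so that they met at their edges. The treated ones were apart, at 8.65, 8.73, 8.53 and 8.72 against 9.01, 9.49, 9.33 and 9.29. MCM6 went from 10.89 to 11.02 on the 4 untreated arrays to 9.71, 9.46, 9.31 and 9.47 in control cells and from 10.27, 10.42, 10.58 and 10.54 to 9.51, 9.77, 9.70 and 9.81 in the other line. Its untreated lines did not overlap and its treated lines did (interaction 0.71, adjusted p = 0.0178).

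Other cell cycle lists lay on the same side with fewer calls. G1 to S regulators had a median of 0.30 and 2 of 26 members called above 0, SKP2 and CDC25A, against 0.524% of all genes. Without replicate 1 it had 8 called above 0, against 2.72%. Of 35 genes of G2 and mitosis, 34 were above 0 with a median of 0.29, and SPC25 and CDC25C were called above 0 (0.524% of all genes were). This list differed from replication in where the lines stood, since its median line difference was already 0.52 in untreated cells and became 0.87. Without replicate 1 its median was 0.18 with 5 calls above 0, again against 2.72%. The list of MYC and nucleolar ribosome biogenesis had a median of 0.19 with 0 of 34 called by limma (5 at an unadjusted p under 0.05), and its lines stayed apart in the other direction, at -0.61 and -0.42. Replicate 1 had a median of 0.34 and the other replicates 0.03 to 0.16, and without replicate 1 the median was 0.11 with 1 gene called above 0. Cytosolic ribosomal proteins had a median of 0.02 over 35 genes, with 0 called by limma and 0 at an unadjusted p under 0.05.

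Antigen presentation lay on the other side. Of 25 measured genes, 21 had an interaction below 0 and 4 above 0, with a median of -0.41, where 10412 of all 18132 genes lay above 0. Limma called 1 below 0 (HLA-E), against 0.364% of all genes, and 1 above 0 (IFI30), against 0.524%. The list's median line difference went from -0.06 in untreated cells to -0.33 in treated cells, and its median response from 0.60 in control cells to 0.21. HLA-E, a class I molecule read by NK cells, rose by 0.60 in control cells and was at 0.06 in cells labelled CASP1 (-0.54, adjusted p = 0.0309). HLA-DMA, which loads peptides onto class II molecules, read 9.42, 9.54, 9.50 and 9.52 in treated control cells and 7.04, 8.52, 8.49 and 8.50 in treated cells labelled CASP1. Replicate 1 was the low array and lay below all 8 untreated arrays, which read 7.42 to 7.73, and the treated lines did not overlap. Its interaction was -1.34 with adjusted p = 0.0652 over all arrays, and -1.01 with adjusted p = 6.43e-05 without replicate 1. Without that replicate 11 of the 25 genes were called below 0 (against 1.29% of all genes), though the median moved from -0.41 to -0.32.

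Glucocorticoid-induced genes, 44 of them measured, had calls on both sides, though only 16 members had an interaction above 0. Over all 18132 genes 10412 did. Their median interaction was -0.10, and their median response was 1.16 in control cells and 0.82 in the other line. Limma called 5 below 0 (P2RY14, LILRB2, TP53INP1, TXNIP and KLF2), against 0.364% of all genes. It called 4 above 0 (TSC22D3, IL7R, BCL6 and MT2A), against 0.524%. With prednisolone 26 were called higher in control cells (5.73% of all genes were) and 27 in the other line (2.99%). FKBP5, the co-chaperone that curbs the receptor, was at 2.42 and 2.80, PER1, a clock gene, at 1.83 and 2.16, and KLF9 at 1.78 and 1.76, with adjusted p of 0.63 to 0.98 for the interaction. BCL2L11, which encodes the apoptosis inducer BIM, was at 1.21 and 0.59 (interaction -0.62, adjusted p = 0.218, and -0.48 with adjusted p = 0.0337 without replicate 1). Of the 14 BCL2L11 probe sets, 10 had this sign over all arrays and 2 were called with it. In the BCL2 family BCL2 alone was called, above 0, of 21 genes (0.524% of all genes were called above 0).

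Of 30 autophagy and FOXO target genes 3 were called below 0, against 0.364% of all genes. They were TP53INP1, TXNIP and PIK3IP1, an inhibitor of PI3 kinase (-0.80, adjusted p = 0.0376). Of the 8 PIK3IP1 probe sets, 5 had this sign and 0 were called as probe sets. PIK3IP1 was called in 6 of the 16 analyses with an array left out. The list's median interaction was -0.17, and its line difference shrank from 0.39 to 0.14. Of 25 endoplasmic reticulum chaperones 0 were called by limma (6 at an unadjusted p under 0.05), at a median of -0.19, and 3 were called below 0 without replicate 1, against 1.29% of all genes. HSPA5, the main chaperone of that compartment, rose by 0.65 in control cells and was at 0.00 in the other line (-0.65, adjusted p = 0.0844). Cholesterol and fatty acid genes had a median of 0.18 with FDPS called above 0 of 24 (0.524% of all genes were). Leukocyte immunoglobulin-like receptors had a median of -0.24, which was -0.14 without replicate 1, and LILRB1 and LILRB2 were called below 0 of 10 (0.364% of all genes were). LILRA2, of the same family, rose by 4.37 and by 4.06 (adjusted p = 0.81), so the smaller rise was not called throughout the family. ATF4 and amino acid response genes had a median of 0.22 over all arrays and -0.06 without replicate 1, with 0 of 31 called by limma either way and 1 at an unadjusted p under 0.05 over all arrays.

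The list of the inflammasome and pyroptosis, to which CASP1 belongs, had a median of -0.02 over 21 genes. TXNIP, which can bind the sensor NLRP3, was its only call, below 0, against 0.364% of all genes. CARD16, a decoy relative of CASP1, was at -1.03 with prednisolone in control cells and at -0.13 in the other line (0.91, adjusted p = 0.123, and 1.06 with adjusted p = 0.0291 without replicate 1). IL1B, which encodes interleukin 1 beta, was at -1.97 and at -1.09 (0.88, adjusted p = 0.240, and 0.94 with adjusted p = 0.00558 without replicate 1). Purinergic receptors had P2RX5 called above 0 (0.524% of all genes were) and P2RY14 below 0 (0.364%), of 18. Kruppel-like factors had KLF2 and KLF7 called below 0, of 17, against the same 0.364%, at a median of -0.15. Of 29 receptor coregulators and relapse-linked genes limma called 0, with 7 at an unadjusted p under 0.05, and the median was -0.04.

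**Figure D4:**
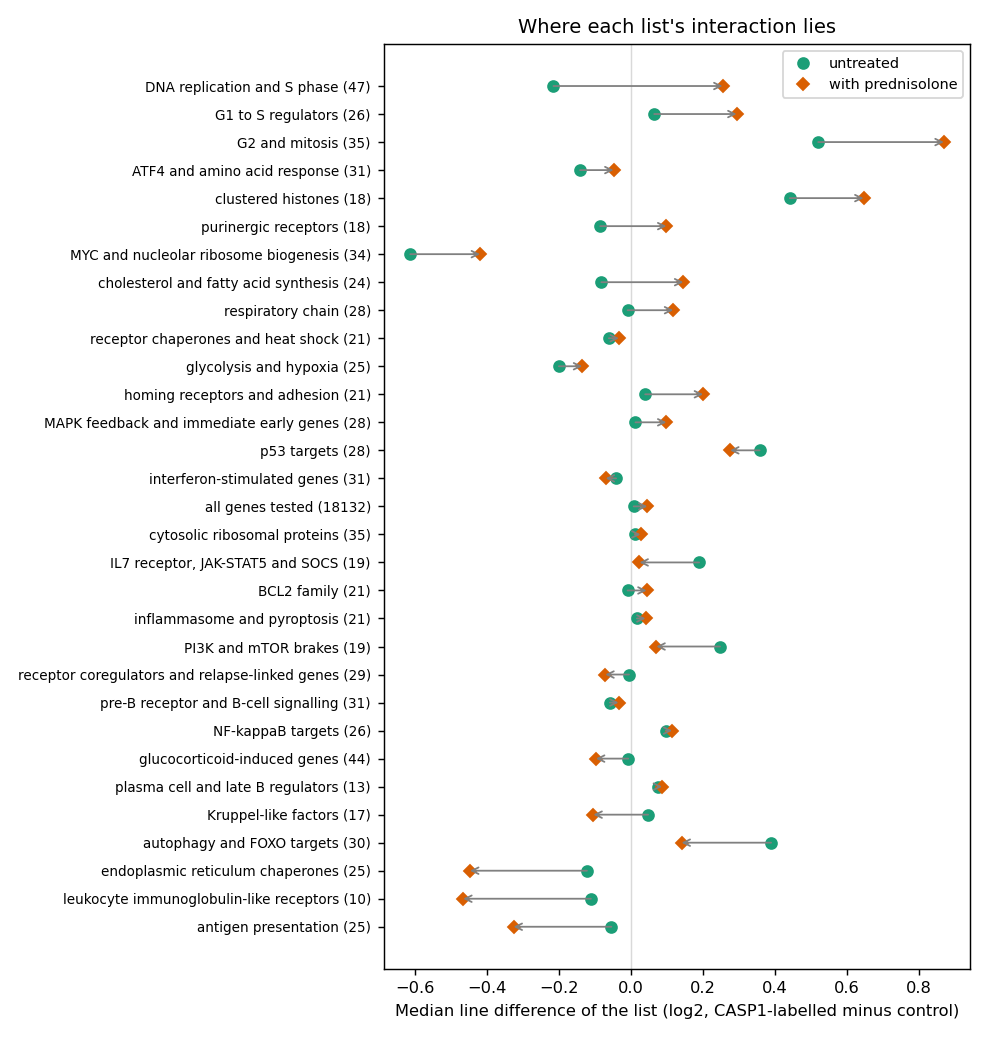
Median line difference (cells labelled CASP1 minus control, log2) of each gene list in untreated cells (circle) and with prednisolone (diamond), with an arrow from the first to the second and the number of measured genes in brackets. DNA replication genes move from -0.22 to 0.25, across 0, while the list of G2 and mitosis moves from 0.52 to 0.87 and antigen presentation from -0.06 to -0.33.

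The threshold separated genes of like size. Just inside it lay BCL6, EIF2B3 and EPOP above 0, with interactions of 1.49, 0.56 and 0.62, and FUT4, FMO5 and GSK3B below 0, with -0.59, -0.98 and -0.62. Just outside lay GGCT, CCDC78 and POLD1, with 0.50, 0.90 and 0.68, and HSP90B1, BCR and BMF, with -0.56, -0.68 and -0.75. The adjusted p of these 12 genes ran from 0.0469 to 0.0547.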

How the data were processed

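Total RNA of 16 Nalm6 samples was measured on Affymetrix PrimeView arrays. The authors deposited 1 log2 signal per probe set and array, made with RMA, per the submitters' processing notes. RMA subtracts background, brings arrays to a common scale and summarises probes, so a change in total RNA per cell cannot be seen. No label or header names the software or the probe set definition. Of 49395 probe sets, the platform annotation gave 1 gene to 44988, several to 1832 and none to 2473, and 102 were controls. For each gene the probe set with the highest mean over all arrays was used, which gave 18132 genes. The number of arrays limits the precision.

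Limma 3.58.1 under R 4.3.3 fitted 4 group means to all 16 arrays, with 12 residual and 5.46 prior degrees of freedom and a median residual SD of 0.167. The moderated two-sided test was run without a trend, with Benjamini-Hochberg adjustment over all genes. All adjusted p-values come from this tool, and the script was tested on simulated data. Means, SDs and differences are on the log2 scale. The 30 gene lists and 7 marker lists are described by counts and medians, with no set test. The members, lists and rules were chosen with earlier results of these data known. Named genes were CASP1, NR3C1, the 15 largest interactions in each direction, the 6 smallest adjusted p in each class, up to 3 per list, and 3 each side of the threshold. Other named genes, such as members of a short count, the remaining replication genes and HLA genes, were chosen after their values were seen. Alternatives covered normalization, the probe set rule, dim genes, the floor, an offset, the threshold, each array left out, replicate 1 left out or as a batch, and the replicate number as a block.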

Additional observations from a re-analysis of the deposited data

Results flagged for a closer look

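The difference of the prednisolone response between the lines was itself the tested quantity, and 161 genes passed. Among the 32 genes examined for a lone array, 20 of 128 groups of 4 arrays had a highest or lowest array far from the other 3, and in 18 of these it was replicate 1. Chance alone would give a few such groups, about 1 in 20. In untreated control cells replicate 1 was low for NR3C1 (9.93), RNASE6 (5.37) and BCL6 (7.86) and high for DDIT4L (10.52). In treated control cells it was low for TXNIP (12.32), GPR171 (4.63), PIEZO1 (8.61) and BCL6 (6.77) and high for CHRNA1 (8.01) and GLDC (5.90). In untreated cells labelled CASP1 it was high for P2RY14 (3.40), TP53INP1 (9.83), DDIT4L (9.88) and P2RX5 (5.71). In treated cells labelled CASP1 it was low for DAPL1 (5.86) and TDRD9 (3.55) and high for OGFRL1 (7.25) and BCL2 (6.99). The exceptions were replicate 3 of untreated cells labelled CASP1, low for RNASE6 (6.88), and replicate 3 of untreated control cells, low for CAPSL (4.04). All of these genes except NR3C1 were called with all arrays and also without replicate 1, and NR3C1 was called only without it.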

How the results depend on the processing

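The count of 161 genes moved by more than 1.5 times under 5 alternatives: 289 with the replicate block, 727 without the 4 arrays of replicate 1, 392 with a batch term for them, 270 with 64 added to the signal and 265 at an adjusted p under 0.10. With 1 array left out it ran from 96 to 268. It was 268 without replicate 1 of treated cells labelled CASP1, and 96 to 103 without replicates 3 or 4 of either control group or replicates 2 or 3 of untreated cells labelled CASP1. In the same order of alternatives, the count called in untreated cells only went from 48 to 83, 227, 114, 84 and 73, that in both states with the same sign from 24 to 58, 147, 76, 52 and 50, and that with opposite signs from 11 to 36, 73, 45, 20 and 33, with 19 without the dimmest 30% of genes. The count called in treated cells only went from 78 to 274 without replicate 1 and to 156 with the batch term. With 1 array left out these ranged from 27 to 80, 11 to 55, 7 to 22 and 43 to 117. Genes touching the floor went from 13 to 5 with a floor at percentile 15, 6 without the dimmest 30%, 32 without replicate 1, and 10 to 19 with 1 array left out. TRIB3, not called, changed sign without replicate 1, to -0.055 (adjusted p = 0.849). Of the other values for single genes, 2643 kept their direction and side of the threshold, 209 lost and 141 gained a call. Of the list medians 892 moved by less than the spread between replicates and 33 by more. The cause of these changes was not tested. The replicate numbers do not pair the arrays by the labels, and over 24 same-numbered pairs the correlation of deviations ran from -0.116 to 0.507. Its median was 0.174 there and -0.0456 over the 72 other pairs. For numbers 1 to 4 the medians were 0.388, 0.171, 0.124 and 0.0845, a structure that the main fit does not model. With the replicate block 158 of the 161 genes were called.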

Other observations

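Values follow for some called genes outside the lists. They were picked by name after their values were seen, from those called above 0, so their shared sign follows from the choice and is no result about a group. EXO1, a nuclease of mismatch repair and end resection, had 0.74, RAD54L and RAD54B, translocases of homologous recombination, 0.93 and 1.12, and EME1, a subunit of a junction-cutting nuclease, 0.89. BLM, a helicase, had 0.46, POLQ, a polymerase of end joining, 0.53, FANCI, of the crosslink repair pathway, 0.57, and UBE2T, its ubiquitin-conjugating partner, 0.69. TIPIN, a fork protection factor, had 0.77 and TICRR, which helps origins fire, 0.91. GMNN, the inhibitor of CDT1, had 0.64. TIPIN was called different between the lines in untreated cells only and RAD54B in both states, and the other 9 in treated cells only.

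Below 0, outside the lists, were GZMA, a granzyme (-1.28), TGFBR3, a co-receptor for TGF-beta (-1.22), PTPRE, a tyrosine phosphatase (-1.20), and TBCD, a tubulin folding cofactor (-1.29), all called different in treated cells only. SMAD7, an inhibitor of TGF-beta signalling (-0.85), and PDCD4, an inhibitor of translation (-0.65), were called different in untreated cells only.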
